A study of Ovis aries with 4 samples.

Results

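Beta-lactoglobulin, encoded by PAEP (ENSOARG00000005099), and lactoferrin, encoded by LTF (ENSOARG00000008620), were followed across the cells of the lactating sheep mammary gland. Both genes were taken by their symbol from the deposited gene list, so the set held 2 of 20150 genes, of which 774 carried a symbol. The samples were droplet-based single-cell RNA libraries of dissociated gland from 4 lactating ewes, with 1 library and 1 ewe each. LL replicates 1 and 2 were late lactation, the series' own meaning of LL, and LH replicates 1 and 2 were taken as peak lactation by elimination. The labels used here name no breed, age or treatment, and n = 2 ewes per stage throughout.

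Beta-lactoglobulin is the main whey protein of ruminant milk and a lipocalin, a small carrier protein that binds retinol and fatty acids. Lactoferrin belongs to the transferrin family, binds iron and limits bacterial growth, and is also known for increasing in the udder secretion when milk removal stops. Luminal epithelial cells of the alveoli and ducts secrete both proteins, prolactin acting through STAT5 is a known driver of beta-lactoglobulin, and neutrophil precursors also make lactoferrin.

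The libraries held 5955 and 9380 barcodes in LH against 12733 and 11178 in LL, with 28015149 to 65339993 unique molecular identifiers (UMIs, each marking 1 captured transcript) in total. After barcodes with a high mitochondrial share and predicted doublets were left out, 5590, 8689, 11430 and 10134 cells remained in LH replicates 1 and 2 and LL replicates 1 and 2. Pairs of libraries shared 15 to 39 barcodes, at most 0.384% of the smaller library. Epithelial cells were gated by at least 1 UMI of EPCAM, an epithelial adhesion molecule, or CLDN4, a tight junction claudin. The other gates used CD3E (T cells), DCN (fibroblasts), C1QA (macrophages) and EDNRA (mural or contractile cells). A cell had to pass exactly 1 gate, DCN needed 5 UMIs and the others 1. In LH replicates 1 and 2 and LL replicates 1 and 2 the EPCAM/CLDN4 gate held 361, 2141, 984 and 2484 cells, and its median cell had 10036, 8563, 8970 and 8970.5 UMIs. The cells of the other gates were shallower, with medians of 1793 to 4529 UMIs, and the DCN gate of LH replicate 2 held 22 cells.

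The gates were checked against further markers, of which few had a symbol. CLDN7, another epithelial claudin, stood at 414 to 591 CPM (UMIs of a gene per 1000000 UMIs of all gated cells of that library) in the EPCAM/CLDN4 gate and at 0 to 47.4 CPM in the other 4. The other epithelial markers with a symbol were the milk genes CSN2, CSN3 and LALBA, of which LALBA (alpha-lactalbumin) was at 0 UMIs in both LH libraries of that gate, which allows up to 0.612 and 0.127 CPM (3 counts of the library's gate). The 4 T cell markers with a symbol of 7 listed summed to 258 to 352 CPM in the CD3E gate and to 2.89 to 17.1 CPM in the EPCAM/CLDN4 gate. The 4 fibroblast markers of 8 listed summed to 10810 to 12630 CPM in the DCN gate and to 281 to 1038 CPM in the EPCAM/CLDN4 gate. The 2 macrophage markers of 8 reached 220 to 385 CPM in the C1QA gate against 3.87 to 7.51 CPM in the EPCAM/CLDN4 gate. The 4 mural or contractile markers of 10 summed to 1286 to 2428 CPM in the EDNRA gate and to 117 to 354 CPM in the EPCAM/CLDN4 gate, the 2 myoepithelial ones of 5 to 64.6 to 85.6 CPM and 1.17 to 7.24 CPM. Of 14 neutrophil markers only FCGR3A, an antibody receptor shared with macrophages, had a symbol, at 0.307 to 1.40 CPM in the EPCAM/CLDN4 gate.

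Among the 5 single-marker gates both whey genes were highest in the epithelial one in every ewe. PAEP stood at 686 and 721 CPM in the EPCAM/CLDN4 cells of the LH ewes and at 2832 and 3135 CPM in those of the LL ewes. LTF stood at 1593 and 1366 CPM in LH against 2670 and 4672 CPM in LL. In both genes the 2 LL libraries lay above the 2 LH libraries, as in 17.1% of the 13210 genes tested later, with the 2 stages further apart in PAEP and the LL ewes further apart from each other in LTF. These levels exceeded those of the same library in each of the other gates in 16 of 16 comparisons, by 7.89-fold to 801-fold for PAEP and 13.1-fold to 294-fold for LTF. Cells that passed more than 1 gate stood at 220, 727, 2018 and 2087 CPM for PAEP and at 510, 1379, 2407 and 3430 CPM for LTF, in LH replicate 2 slightly above the EPCAM/CLDN4 gate. Between 66.0% and 88.6% of the PAEP UMIs of a library's remaining cells were in the EPCAM/CLDN4 gate. The remaining cells held 4424 of 4538 and 25798 of 29278 PAEP UMIs of all barcodes in LH. In LL they held 47252 of 55322 and 115186 of 133790. Cells that also carried a second gate's marker raised that to 98.2%, 97.3% and 98.4% in LH replicates 1 and 2 and LL replicate 2. In LL replicate 1 it reached only 82.4%, while LTF reached 97.2% there. Cells with no gate marker held 5856 of the 47252 PAEP UMIs of that library's remaining cells.

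**Figure D1:**
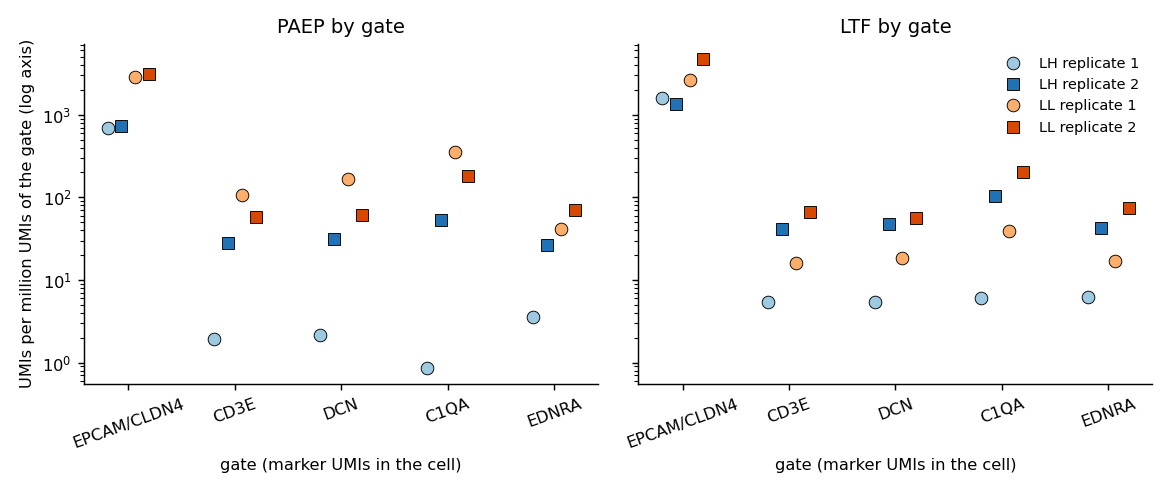
Levels of PAEP (left) and LTF (right) in CPM of the gate, on a log axis, for the 5 gates; each point is 1 library of 1 ewe. The EPCAM/CLDN4 gate lies above the others for both genes in all 4 libraries, and LL replicate 1 ranks high for PAEP but low for LTF in the CD3E, DCN and C1QA gates.

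Detection in single cells varied widely between the ewes of a stage. PAEP was found in 48.5% (exact Clopper-Pearson 95% interval 43.2% to 53.8%) and 72.2% (70.2% to 74.1%) of EPCAM/CLDN4 cells in LH. It was found in 72.1% (69.1% to 74.8%) and 83.9% (82.4% to 85.3%) of those in LL. LTF was found in 51.5% (46.2% to 56.8%) and 80.0% (78.2% to 81.6%) in LH against 61.7% (58.6% to 64.7%) and 88.4% (87.1% to 89.6%) in LL. The stages overlapped in both genes, and the intervals cover counting error only. The stage means were 60.3% ± 16.7 (SD, n = 2) and 78.0% ± 8.35 for PAEP and 65.7% ± 20.1 and 75.0% ± 18.9 for LTF. The PAEP difference of 17.6 percentage points and the LTF difference of 9.30 both came with overlapping ewes (exact two-sided permutation p = 0.667 for each, where 0.333 is the smallest p that 4 libraries allow).

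Depth was levelled by drawing 1000 UMIs from each cell, which left out 7, 67, 16 and 23 shallower cells. PAEP then remained detectable in 23.2% and 36.1% of EPCAM/CLDN4 cells in LH against 44.3% and 61.8% in LL, without overlap between the stages. The share of all genes without overlap was not counted at this depth. LTF was detected in 36.7% and 48.5% in LH against 43.8% and 76.8% in LL, with overlap. At the same depth the T cell gate, which should lack both genes, gave 0.235%, 3.21%, 5.82% and 6.57% for PAEP in LH replicates 1 and 2 and LL replicates 1 and 2. For LTF it gave 0.470%, 6.02%, 2.14% and 6.42%. The macrophage gate (C1QA) gave 0%, 6.53%, 11.2% and 11.0% for PAEP and 0.556%, 7.83%, 3.46% and 8.97% for LTF. The EPCAM/CLDN4 share was higher than that of either gate in each library for both genes. Before depth was levelled the T cell gate gave 0.647%, 6.97%, 13.0% and 12.9% for PAEP, at median depths of 3306, 2755, 2656 and 2334 UMIs.

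The amount per cell was highly uneven. In UMIs per 10000 UMIs of the cell, the median PAEP level was 0 and 3.52 in LH against 4.11 and 13.1 in LL, whereas the 90th percentile was 16.6 and 16.3 in LH against 57.0 and 80.7 in LL. The 10% of cells richest in PAEP held 63.4% and 50.7% of its UMIs in LH against 71.1% and 52.8% in LL. Cells with at least 100 PAEP UMIs per 10000, that is 1% of their transcripts, numbered 0 and 1 in LH against 53 (5.39%) and 182 (7.33%) in LL. The highest PAEP level of a cell was 85.3 and 120 per 10000 in LH, 2129 in LL replicate 1 and 539 in LL replicate 2.

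LTF was spread over the cells in much the same way. Its median was 0.862 and 6.01 per 10000 in LH against 3.73 and 31.1 in LL, and its 90th percentile was 33.2 and 33.0 in LH against 62.3 and 113 in LL. The richest 10% of cells held 58.9% and 55.6% of LTF UMIs in LH against 64.5% and 44.4% in LL. Cells at 100 LTF UMIs per 10000 or above numbered 3 and 21 (0.981%) in LH against 50 (5.08%) and 341 (13.7%) in LL. LL replicate 2 was thus the ewe with the largest share of cells at this level for both transcripts, and LH replicate 1 had the smallest share of cells with a UMI of either gene. The coefficient of variation over cells was 1.09 to 1.84 for LTF and 1.40 to 4.37 for PAEP, highest for PAEP in LL replicate 1.

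**Figure D2:**
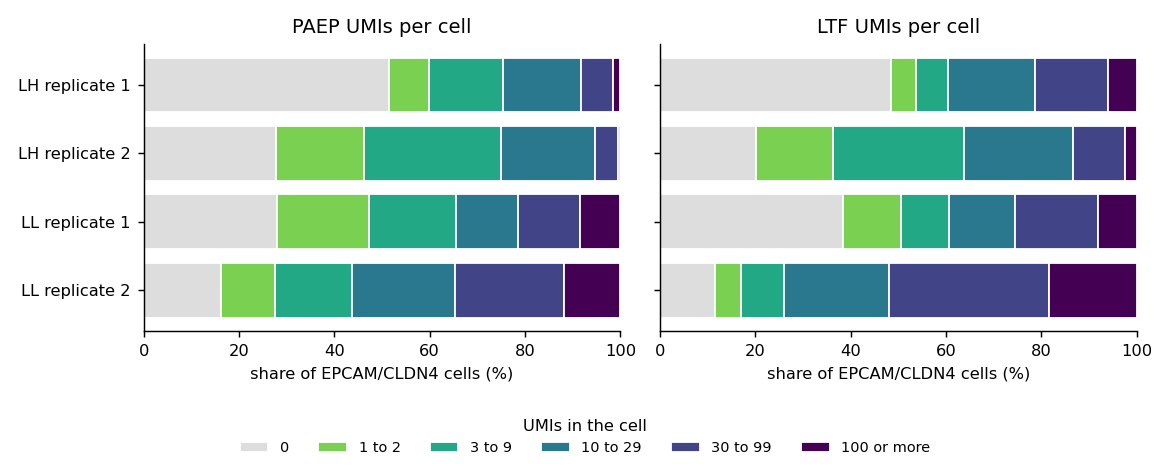
Shares of EPCAM/CLDN4 cells (x axis, percent) by the number of PAEP UMIs (left) and LTF UMIs (right) in the cell, 1 bar per library. Cells with 100 or more PAEP UMIs made up 1.66% and 0.467% of the LH libraries and 8.54% and 11.9% of the LL libraries.

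Cells that carried both gate genes more often held a whey transcript than cells with EPCAM alone, while the level per UMI did not follow in every library. Cells with EPCAM and CLDN4 made up 41.6% and 57.2% of the gate in LH against 55.1% and 65.3% in LL. PAEP was found in 86.0% and 84.7% of them in LH against 87.1% and 92.9% in LL. Cells with EPCAM alone gave 21.6% and 57.1% in LH against 51.8% and 68.1% in LL. LTF followed the same order, at 87.3%, 90.3%, 78.4% and 96.7% of cells with both gate genes and at 25.5%, 67.8%, 40.4% and 73.6% of those with EPCAM alone. The cells with both gate genes were also deeper (medians of 16922, 10900.5, 11782.5 and 10899 UMIs against 5828, 5322, 5382 and 5895.5), and the part of depth in this difference was not tested. In CPM, PAEP stood at 834, 739, 2902 and 3355 in the cells with both gate genes and at 365, 677, 2614 and 2082 in those with EPCAM alone. LTF stood at 1969, 1367, 3008 and 4999 CPM against 787, 1381, 1762 and 3203 CPM, so that LH replicate 2 did not share the order. The cells with CLDN4 alone, 7, 87, 48 and 91 in number, held 445, 411, 3060 and 3952 CPM of PAEP, which in both LL libraries was above the cells with both gate genes.

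At full depth PAEP and LTF were mostly found in the same epithelial cells. Among EPCAM/CLDN4 cells 47.1% and 67.3% in LH against 54.4% and 81.4% in LL carried both transcripts. PAEP without LTF was seen in 1.39% and 4.86% of cells in LH, in 17.7% in LL replicate 1 and in 2.50% in LL replicate 2. LTF without PAEP was seen in 4.43%, 12.7%, 7.32% and 7.05% in the same order of libraries. Of the cells with PAEP, 97.1%, 93.3%, 75.5% and 97.0% also carried LTF, against 8.60%, 45.5%, 26.2% and 43.6% of the cells without PAEP. With cells drawn down to 1000 UMIs these shares were 78.0%, 64.6%, 66.2% and 90.8% against 24.3%, 39.4%, 26.0% and 54.2%. Both transcripts were then found in 18.1%, 23.3%, 29.3% and 56.2% of cells. PAEP alone was found in 5.08%, 12.8%, 15.0% and 5.69%, and LTF alone in 18.6%, 25.2%, 14.5% and 20.7%. Cells with neither transcript made up 47.1% and 15.2% in LH against 20.6% and 9.10% in LL. These cells were shallow, with medians of 4729, 3179, 3770 and 3069.5 UMIs, and held CLDN7 at 163, 382, 190 and 192 CPM, below the cells with both transcripts in each library (612, 615, 482 and 429 CPM).

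The levels of the 2 genes were positively correlated across cells, with a lower rho at 1000 UMIs per cell. Spearman's rho between their levels per 10000 UMIs was 0.886 and 0.557 in LH (361 and 2141 cells) and 0.621 and 0.663 in LL (984 and 2484 cells), with a mean of 0.682 ± 0.143 (SD over 4 libraries). These are descriptions of cells that share a library, with no p. Over the cells with both transcripts alone rho was 0.454, 0.474, 0.419 and 0.521. Depth moved with both genes: rho with the cell's total UMIs was 0.252 to 0.565 for PAEP and 0.197 to 0.570 for LTF, highest in LH replicate 1. With every cell drawn down to 1000 UMIs rho was 0.518, 0.296, 0.472 and 0.512, a mean of 0.449. Over the cells that still held both transcripts it was then 0.266, 0.123, 0.161 and 0.259, a mean of 0.202 against 0.467 at full depth. Smaller counts per cell also lower rho through counting error, so the fall does not measure the part of depth in the full-depth rho. When the PAEP-bearing cells of a library were ranked by PAEP and cut into 4 equal groups, the lowest to the highest group showed a shift in LTF. The median LTF level went from 9.45 to 34.3 per 10000 in LH replicate 1 and from 3.97 to 20.9 in LH replicate 2. In LL it went from 0.526 to 36.8 in replicate 1 and from 12.9 to 72.7 in replicate 2. In the other 4 gates rho lay between -0.13 and 0.23, where 63.3% to 97.7% of cells carried neither transcript. Over the cells of these gates with both transcripts it was 0.612 to 0.880 where computed, from 12 to 37 cells of a library. Both levels of a cell are divided by the same depth, and its part in these values was not tested.

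**Figure D3:**
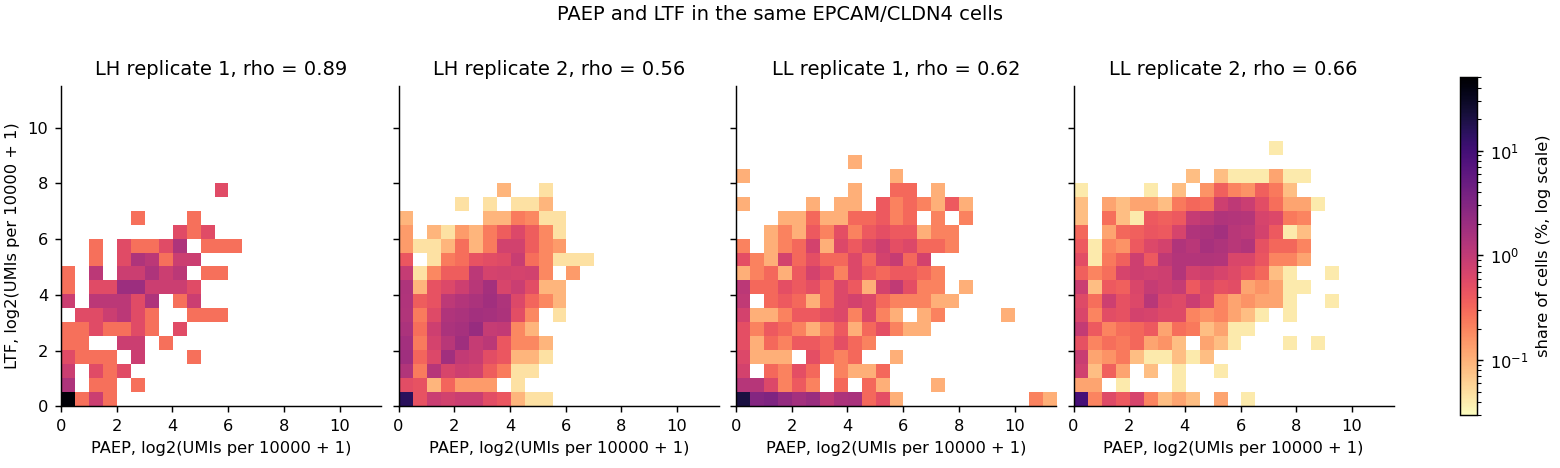
Share of EPCAM/CLDN4 cells (colour, percent, log scale) by PAEP level (x axis) and LTF level (y axis), both as log2(UMIs per 10000 + 1), 1 panel per library. Each panel shows a cloud rising to the right, and LL replicate 1 has a row of cells with PAEP and no LTF along the bottom.

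Among 372 other genes with a symbol and a UMI in at least 5% of EPCAM/CLDN4 cells of every library, each whey gene was the other's closest match by mean rho over the 4 libraries. PAEP was next most like CCL28 (mean rho 0.47), CRYAB (0.45), SPP1 (0.43) and CLDN7 (0.39). LTF was next most like SPP1 (0.53), CCL28 (0.47), CRYAB (0.45) and TXN (0.40). CCL28 is a mucosal chemokine that draws plasma cells to the gland, CRYAB a small heat shock protein, SPP1 the milk glycoprotein osteopontin and TXN thioredoxin, which reduces protein disulfides. The lowest values with PAEP were those of BTG1 (-0.21), an antiproliferative gene, IGFBP5 (-0.19), an IGF-binding protein, and TIMP3 (-0.18), a protease inhibitor of the matrix. With LTF they were those of BTG1 (-0.24), IGFBP5 (-0.23) and GGTA1 (-0.22), a galactosyltransferase. At 1000 UMIs per cell the 2 whey genes were again each other's closest match, while CCL28 stood at 0.13 with either.

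Epithelial cells were also split by their balance of LTF and osteopontin (SPP1). Cells with more LTF than SPP1 UMIs made up 11.9% and 7.99% of the gate in LH against 43.8% and 72.8% in LL. PAEP stood at 1512 and 1248 CPM in these cells in LH against 3539 and 3733 CPM in LL. In the cells with at least as much SPP1 it stood at 508, 680, 2001 and 708 CPM in the same order of libraries. PAEP was thus higher in the LTF-rich cells of all 4 libraries. The split used LTF itself, which was correlated with PAEP across the same cells. Cells with no UMI of LTF or SPP1 fell among those with at least as much SPP1. The difference between the classes is therefore no separate evidence that the whey genes go together. In the LTF-rich cells both LL ewes lay above both LH ewes, and the share of all genes doing so there was not counted.

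The comparison of LL with LH asked whether the epithelial cells carried more of either transcript late in lactation. In EPCAM/CLDN4 cells PAEP averaged 703 ± 25.3 CPM in LH against 2983 ± 214 CPM in LL (SD, n = 2). The log2 change was 2.13 ± 0.23 (SE) in edgeR's quasi-likelihood test on counts summed per library, with an unadjusted p of 2.55e-04 and a Benjamini-Hochberg adjusted p of 0.281. LTF averaged 1479 ± 161 CPM in LH against 3671 ± 1416 CPM in LL, a log2 change of 1.38 ± 0.37 with an unadjusted p of 0.0145 and an edgeR adjusted p of 0.564. Neither gene passed the threshold of 0.05. PAEP ranked 12 and LTF 331 by p among 13210 genes tested. The edgeR test called 1 of these genes (0.00757%) and gave 1065 an unadjusted p under 0.05. DESeq2 on the same counts called 208 genes (1.57%), among them PAEP (log2 change 2.13, DESeq2 adjusted p = 2.76e-17) and LTF (1.38, DESeq2 adjusted p = 0.0130). Whether LTF and PAEP differed in their change was read from their ratio. PAEP per LTF UMI was 0.430 and 0.528 in LH against 1.06 and 0.671 in LL, without overlap, at an exact two-sided permutation p of 0.333, the smallest that 4 libraries allow. Over the cells of the gate with no casein UMI it was 0.440 and 0.535 in LH against 0.485 and 0.632 in LL, and the stages overlapped.

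The size of the LTF change rested on LL replicate 2. Without that library it was 0.83 ± 0.36 on the log2 scale (edgeR adjusted p = 0.689), and without LL replicate 1 it was 1.78 ± 0.38 (edgeR adjusted p = 0.349). PAEP stayed between 1.99 and 2.27 whichever library was left out. The only gene that edgeR called, ENSOARG00000002980, has no symbol in the deposited files and is named here because it alone passed. It stood at 0.408 and 0.297 CPM in LH against 192 and 220 CPM in LL. Without either LH replicate edgeR called 0 genes (696 and 1261 with an unadjusted p under 0.05), and without LL replicate 2 it called 16.

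Other genes of milk and of whey gene control were read as lists, and no member of any list passed the edgeR threshold. Of 22 milk protein genes 6 were tested, 3 of them higher in LL, with a median log2 change of -0.04 against 0.01 over all genes tested. An unadjusted p under 0.05 was found for 4 of them, lysozyme (LYZ, also in the defence list) included, and DESeq2 called 1 in each direction. Over all 13210 genes tested, 6704 were higher in LL, 1065 had an unadjusted edgeR p under 0.05 and DESeq2 called 208 (1.57%). SPP1 was lower in LL, at 3624 and 5060 CPM in LH against 1059 and 1343 CPM in LL (log2 change -1.80 ± 0.32, edgeR adjusted p = 0.451), and was called by DESeq2. CSN2 (beta-casein) stood at 0 (up to 0.612) and 0.254 CPM in LH against 83.7 and 9.62 CPM in LL, and was the gene DESeq2 called higher. CSN3 (kappa-casein) stood at 4.48 and 4.11 CPM in LH against 806 and 6.42 CPM in LL, so that LL replicate 1 alone stood apart. PLIN2, which coats milk lipid droplets, overlapped between the stages at 54.2 and 94.8 CPM in LH against 51.0 and 79.5 CPM in LL. The scarcity of caseins beside whey transcripts held in all but LL replicate 1, where the 4 caseins summed to 1054 CPM in the gate against 4.48, 4.49 and 16.3 CPM elsewhere.

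Of 26 epithelial defence genes 7 were tested and 5 were higher in LL, with a median log2 change of 0.11, 1 unadjusted p under 0.05 and none called by DESeq2. All genes tested gave 6704 of 13210 higher, 1065 with an unadjusted edgeR p under 0.05 and 208 called by DESeq2. CCL28, the only one at 20 CPM or more, stood at 68.7 and 127 CPM in LH against 139 and 211 CPM in LL (log2 change 0.89 ± 0.41, edgeR adjusted p = 0.634). Of 17 prolactin and STAT5 genes 4 were tested and 1 was higher in LL, with a median of -0.22, none with an unadjusted p under 0.05 and none called by DESeq2. NFIB, a transcription factor of milk gene promoters, stood at 1212 and 1344 CPM in LH against 772 and 1097 CPM in LL. STAT5A, the prolactin-activated transcription factor, stood at 54.6 and 40.9 CPM in LH against 33.7 and 42.6 CPM in LL. The growth hormone receptor GHR had 124 and 134 CPM in LH against 167 and 60.5 CPM in LL, and the glucocorticoid receptor NR3C1 had 233 and 189 CPM and 192 and 216 CPM. These last 3 overlapped between the stages.

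Of 23 involution genes 8 were tested and 6 were higher in LL, with a median of 0.23, 3 unadjusted p under 0.05 and 1 called by DESeq2. Over all 13210 genes tested these 3 counts were 6704, 1065 and 208. IGFBP5, which increases in the involuting gland, stood at 41.8 and 38.5 CPM in LH against 65.8 and 60.6 CPM in LL (log2 change 0.70 ± 0.16, edgeR adjusted p = 0.546). The matrix protease MMP7 was lower in LL, at 178 and 94.6 CPM in LH against 59.1 and 24.6 CPM in LL (log2 change -1.68 ± 0.48, edgeR adjusted p = 0.576), and was the one that DESeq2 called. TIMP1, an inhibitor of matrix proteases, had 420 and 306 CPM in LH against 257 and 215 CPM in LL, and NFKBIA, the inhibitor of NF-kappaB, had 928 and 925 CPM and 1027 and 1139 CPM. Of 20 iron and retinol genes 4 were tested and 3 were higher in LL, with a median of 0.58, 1 unadjusted p under 0.05 and 1 called by DESeq2. That gene was ALDH1A1, which oxidises retinal to retinoic acid, at 9.99 and 31.1 CPM in LH against 141 and 61.5 CPM in LL (log2 change 2.26 ± 0.64, edgeR adjusted p = 0.576). FTH1, the ferritin heavy chain that stores iron, had 5004 and 5215 CPM in LH against 3575 and 4177 CPM in LL. HAMP, the iron hormone hepcidin, overlapped between the stages at 8.97 and 35.2 CPM in LH against 32.3 and 17.1 CPM in LL.

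In the 4 other gates both transcripts were present at lower levels, which served as a guide to free RNA. Averaged over the 4 libraries, PAEP was highest in the EPCAM/CLDN4 gate (1843 ± 1322 CPM, SD), followed by the C1QA (148 ± 159), DCN (65.9 ± 72.5), CD3E (48.2 ± 44.4) and EDNRA gates (35.4 ± 27.8). LTF stood at 2575 ± 1509 CPM in the EPCAM/CLDN4 gate and 88.0 ± 86.7 in the C1QA, 34.9 ± 30.1 in the EDNRA, 32.4 ± 27.5 in the CD3E and 32.0 ± 24.0 CPM in the DCN gate. For both genes the ranges of the EPCAM/CLDN4 gate and the next gate did not overlap, whereas all neighbours below it overlapped. The 4 other gates together stood at 0.293% and 4.58% of the epithelial PAEP level in LH against 5.33% and 2.28% in LL. For LTF these shares were 0.350% and 4.12% in LH against 0.779% and 1.59% in LL. Cells with no gate marker stood at 9.90 and 66.4 CPM of PAEP in LH against 307 and 146 CPM in LL. That was 1.44% and 9.21% of the epithelial level in LH against 10.9% and 4.64% in LL. Their LTF was at 21.6 and 162 CPM (1.36% and 11.9%) in LH against 40.5 and 198 CPM (1.52% and 4.24%) in LL.

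The level outside the EPCAM/CLDN4 gate differed between ewes in a similar order across gates. PAEP in the CD3E gate was 1.94 and 27.7 CPM in LH against 105 and 57.9 CPM in LL, from 15, 40, 264 and 104 UMIs. In the DCN gate it was 2.18 and 31.6 CPM in LH, each from 2 UMIs, and 168 and 61.5 CPM in LL. In the C1QA gate it was 0.856 CPM (1 UMI) and 53.2 CPM in LH against 359 and 181 CPM in LL. In the EDNRA gate it was 3.57 and 26.8 CPM in LH against 41.2 and 70.0 CPM in LL. LH replicate 1 was lowest in all 4 gates, and LL replicate 1 was highest in all but the EDNRA gate. LTF was lowest in LH replicate 1 as well, with 5.43 to 6.24 CPM, and highest in LL replicate 2, with 56.6 to 203 CPM. LH replicate 2 had 41.6 to 104 CPM of LTF and LL replicate 1 had 16.0 to 39.0 CPM. In the C1QA gate of LL replicate 2 the richest 1% of cells held 48.5% of PAEP and 62.2% of LTF UMIs.

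Stage differences in these gates did not pass the edgeR test. The log2 change of PAEP from LH to LL was 3.03 ± 1.00 (SE) in the CD3E gate, 3.27 ± 1.04 in the C1QA gate and 1.67 ± 0.65 in the EDNRA gate (edgeR adjusted p of 0.757, 0.662 and 0.802). Without LH replicate 1 it was 1.64, 2.37 and 1.07, and without LH replicate 2 it was 5.42, 8.07 and 3.95. For LTF it was 1.08 ± 0.98, 0.91 ± 1.05 and 0.75 ± 0.86 (edgeR adjusted p of 0.950, 0.871 and 0.940), and without LL replicate 2 it turned to -0.27, -0.43 and -0.53. The edgeR test called 1 of 8898 genes (0.0112%) in the CD3E gate, 1 of 8945 (0.0112%) in the C1QA gate and 4 of 10629 (0.0376%) in the EDNRA gate. The gene called in the epithelium, ENSOARG00000002980, was among those called in each. PAEP lay higher in both LL libraries in the epithelium, as did 17.1% of the genes tested there, and in every other gate. That share was not counted in the other gates. PAEP rested on 2 UMIs in each LH library of the DCN gate and on 1 UMI in the C1QA gate of LH replicate 1. The part of free epithelial RNA in the PAEP levels outside the EPCAM/CLDN4 gate was not tested.

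The ratio of PAEP to LTF UMIs in the other gates was set beside that in the epithelium of the same ewe. In LH replicate 1 the ratio was 0.430 in EPCAM/CLDN4 cells and 0.357, 0.400, 0.143 and 0.571 in the CD3E, DCN, C1QA and EDNRA gates. In LH replicate 2 it was 0.528 in the epithelium and 0.667, 0.667, 0.511 and 0.633 in the same gates. In LH replicate 1 these ratios rest on 15 PAEP and 42 LTF UMIs in the CD3E gate and on 1 to 7 UMIs of each gene in the other gates, too few to tell them from the epithelial ratio. In LH replicate 2 the DCN ratio rests on 2 and 3 UMIs, and the intervals of the CD3E (0.435 to 1.01), C1QA (0.392 to 0.664) and EDNRA gates (0.495 to 0.806) held the epithelial ratio. These exact 95% intervals treat UMIs of 1 cell as independent and so may be too narrow. In LL replicate 2 the ratio was 0.671 in the epithelium and 0.867 (0.660 to 1.14), 1.09 (0.879 to 1.34), 0.892 (0.673 to 1.18) and 0.948 (0.784 to 1.15) elsewhere, with only the CD3E interval holding the epithelial value. LL replicate 1 stood apart, with 1.06 in the epithelium but 6.60 (4.72 to 9.45), 9.03 (7.44 to 11.0), 9.19 (7.37 to 11.6) and 2.42 (1.83 to 3.23) in the other gates. In cells with no gate marker the ratio was 0.458 (0.325 to 0.637), 0.409 (0.365 to 0.457), 7.59 (7.04 to 8.19) and 0.735 (0.682 to 0.792) in LH replicates 1 and 2 and LL replicates 1 and 2, and only the first interval held the epithelial value.

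**Figure D4:**
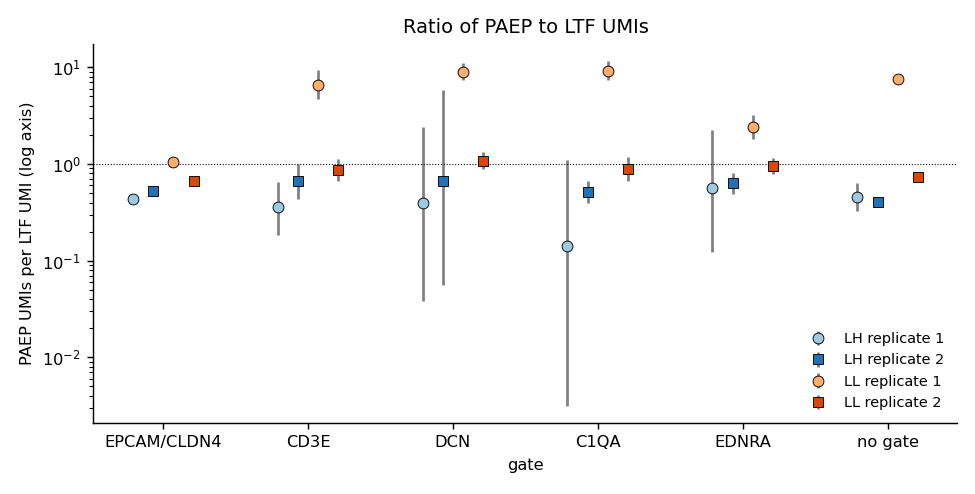
PAEP UMIs per LTF UMI (y axis, log scale) by gate, 1 point per library, with exact binomial 95% intervals as grey lines; the dotted line marks equal numbers. LL replicate 1 lies between 2.42 and 9.19 outside the EPCAM/CLDN4 gate and at 1.06 in it, while the points of the other 3 libraries stay between 0.143 and 1.09.

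LL replicate 1 was also the library with caseins outside the EPCAM/CLDN4 gate. The 4 caseins summed to 119, 169, 342 and 20.8 CPM in the CD3E, DCN, C1QA and EDNRA gates of that library, against 0 to 2.29 CPM in the same gates of the other 3. Cells with at least 5 casein UMIs numbered 12 in the CD3E, 14 in the DCN and 24 in the C1QA gate, and 47 among cells with no gate marker. PAEP stood at 3865, 12898 and 4727 CPM in the 3 gated sets and at 31267 CPM in the ungated cells. LTF had 0 UMIs in the first, 1 UMI in the second, and stood at 316 CPM in the third and at 104 CPM in the ungated cells. Whether these cells with at least 5 casein UMIs were epithelial cells, doublets or cells with free RNA was not tested. Among cells with no casein UMI, PAEP was at 39.4, 44.2 and 47.2 CPM in the CD3E, DCN and C1QA gates and its ratio to LTF was 2.50, 2.41 and 2.69. In the EDNRA gate that ratio was 2.06 and in EPCAM/CLDN4 cells 0.485, so the gates stayed above the epithelium over cells without a casein UMI. These classes were not alike. They held 76.8% to 96.1% of the cells of the other gates, at median depths of 2649 to 3994 UMIs. In the epithelium the class held 56.1% of cells, at a median of 7308.5 UMIs. A shallow cell without a casein UMI may still hold casein transcripts. A few cells carried much of the signal, since the richest 1% of the DCN gate held 69.1% of its PAEP UMIs and 1 cell held 610 of 1038. Without the richest 1% of cells PAEP stood at 52.7 CPM in the DCN gate, against 52.1 CPM in LL replicate 2 treated alike. In the CD3E, C1QA and EDNRA gates it then stood at 60.8, 202 and 31.4 CPM against 49.0, 95.0 and 58.6 CPM in LL replicate 2.

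Epithelial cells of LL replicate 1 also held more PAEP where they held more casein. Cells with 0, 1 to 4, and 5 or more casein UMIs made up 56.1%, 26.0% and 17.9% of the EPCAM/CLDN4 gate. Their PAEP level was 1262, 1821 and 6316 CPM, and their summed LTF level was 2600, 2564 and 2885 CPM. In single cells LTF was higher with more casein, with a median of 0.755, 5.20 and 12.7 per 10000 UMIs and a UMI in 52.4%, 68.4% and 81.3% of cells. The casein-bearing cells were deeper (medians of 9677 and 12813 UMIs against 7308.5), and the part of depth was not tested. The cells with PAEP and no LTF, frequent in this library alone, held 1694 CPM of CSN3 and 367 CPM of CSN2, against 775 and 35.0 CPM in the cells with both whey transcripts. Their CLDN7 level was 301 CPM and that of SPP1 157 CPM, against 482 and 1451 CPM. In LL replicate 2, 20 cells with at least 5 casein UMIs held 12564 CPM of PAEP and 4872 CPM of LTF, against 2830 and 4480 CPM in its 2372 cells without casein. From 0 to 1 to 4 casein UMIs LTF went from 1534 to 3138 CPM in LH replicate 1, where 7 cells made up the second class, from 1288 to 2423 CPM in LH replicate 2 and from 4480 to 7536 CPM in LL replicate 2. In LH only 1 and 3 cells of the gate reached 5 casein UMIs.

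**Figure D5:**
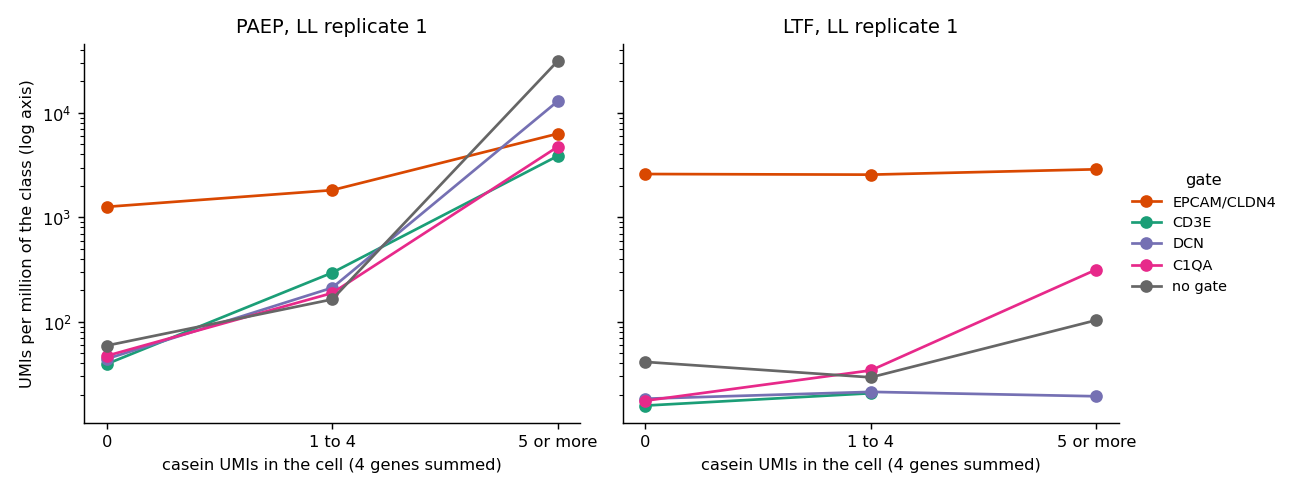
PAEP (left) and LTF (right) in LL replicate 1, in CPM of the cells of each class (y axis, log scale), by the casein UMIs of the cell (x axis) and the gate (colour); classes of under 10 cells and values of 0 are not drawn. PAEP is higher with more casein in every gate shown, from 1262 to 6316 CPM in EPCAM/CLDN4 cells, and summed LTF there runs from 2600 to 2885 CPM.

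Over the cells without any casein UMI (a setting chosen after seeing the data) PAEP stood at 675 and 689 CPM in LH against 1262 and 2830 CPM in LL. Its log2 change from LH to LL was 1.66 ± 0.48 (SE, edgeR adjusted p = 0.674), smaller than over all cells of the gate, with both LL ewes still above both LH ewes. The share of all genes with that order was not counted over these cells. LTF stood at 1534 and 1288 CPM in LH against 2600 and 4480 CPM in LL, with a log2 change of 1.39 ± 0.39 (edgeR adjusted p = 0.674). Their rho across these cells was 0.886, 0.547, 0.653 and 0.660 in LH replicates 1 and 2 and LL replicates 1 and 2.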

How the data were processed

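Single-cell libraries of mammary gland from 4 ewes were used as UMI counts per gene and barcode, as deposited. The submitters' processing notes list STAR, Seurat 3.2.0 and Cell Ranger 5.0.1, whereas per the file headers the count matrices were written by Cell Ranger 7.2.0. Genome build and gene annotation are not given in the sources used here. Libraries were grouped by their titles. Barcodes with over 20% mitochondrial UMIs (13 genes) and doublets, called with a Scrublet-type score (2 simulated doublets per cell, 2000 variable genes, 30 components, 30 neighbours), were left out: 102, 19, 94 and 145 barcodes and 263, 672, 1209 and 899 cells (4.49% to 9.57%). The number of doublets called was capped in advance at 0.8% per 1000 barcodes, so these shares follow library size. The resulting cut was passed by 45.6% and 67.6% of simulated doublets in LH against 83.0% and 76.4% in LL.

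Counts were summed per library and gate, for gates of at least 50 cells in each library, which left the DCN gate untested. LL was compared with LH by edgeR 4.0.16 (R 4.3.3; quasi-likelihood test, TMM, filterByExpr with a minimum count of 10, Benjamini-Hochberg adjusted p under 0.05 over all genes); DESeq2 1.42.0 was an alternative. The edgeR steps were tested on simulated data. CPM are unscaled, intervals are exact Clopper-Pearson at 95%, and 2 ewes per stage limit every p-value. Shares were compared by exact permutation over 6 arrangements (scipy 1.17.1). Shared replicate numbers do not mark paired ewes in the labels.

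Genes like a member were the 5 highest and 3 lowest by mean rho; list genes named were at most 4 a list, by lowest p, with a mean of at least 20 CPM. The genes, gates, lists and tests were chosen with earlier results of these data known. The splits by casein UMIs and by presence of either transcript were added after the data were seen.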

Additional observations from a re-analysis of the deposited data

How the results depend on the processing

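The direction of PAEP and LTF in EPCAM/CLDN4 cells was the same under every setting tried (another normalization, no filter on low counts, other gates, no doublet call, no mitochondrial limit, thinned or equal numbers of cells, each library left out), with log2 changes of 1.66 to 2.43 for PAEP and 0.83 to 1.78 for LTF. DESeq2 alone put them past the threshold (2.13 and 1.38), its adjusted p being the lowest of a range of 2.76e-17 to 0.887 for PAEP and 0.0130 to 0.908 for LTF. With the replicate number as a block the changes were 2.13 and 1.30 (edgeR adjusted p of 0.153 and 0.338, 1 gene called); nothing in the labels pairs the ewes, and the deviations of same-numbered libraries correlated at 0.13. The block changed no call of either gene in any gate. The number of genes called was 208 with DESeq2, 15 without a filter, 3 with at least 2 UMIs of the gate genes, 2 without the doublet call, with equal numbers of cells or over cells without casein, and 0 to 16 when a library was left out; each library left out but LL replicate 1 changed it, and the lone library left in a stage is then assumed to vary like the other stage. Leaving out a library moved PAEP between 1.99 and 2.27, and in the CD3E, C1QA and EDNRA gates between 1.64 and 5.42, 2.37 and 8.07, and 1.07 and 3.95, highest without LH replicate 2. LTF ranged there from -0.27 to 2.93, -0.43 to 4.04 and -0.53 to 2.84. The LL minus LH difference in the share of cells with LTF ranged from -4.92 to 23.5 percentage points, below 0 without LH replicate 1 or LL replicate 2, and that for PAEP from 5.79 to 29.5. Mean rho was 0.449 with thinned cells, 0.491 over cells with either transcript and 0.614 to 0.724 with a library left out. Where cells of the other gates could also carry EPCAM or CLDN4, PAEP and LTF there reached 30.2% and 30.4% of their epithelial levels, against 3.12% and 1.71%. With a DCN minimum of 1 UMI the DCN gate could be tested, with log2 changes of 3.67 ± 1.46 for PAEP and 0.42 ± 1.28 for LTF (edgeR adjusted p of 0.993 and 1.00). The cause of these shifts was not tested. Low counts limit the gates other than EPCAM/CLDN4 in LH. In LH replicate 1 each of these gates held 1 to 15 UMIs of PAEP and 5 to 42 of LTF. The CD3E gate was not shallower in LH, with medians of 3306 and 2755 UMIs against 2656 and 2334 in LL. The part of depth in these counts and in the correlation was not tested.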
